A study of Mus musculus with 8 samples.

Results

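The Bcl2 family controls whether a cell commits to apoptosis through its mitochondria. The 10 members described here are Bcl2, Bcl2l1, Mcl1, Bak1, Bbc3, Pmaip1, Bik, Bid, Bcl2l11 and Bmf. They were picked out by gene symbol from a list of family members, drawn up with earlier results of these data known, and are 10 of 31574 gene rows in a deposited RNA sequencing table. The cells were acute myeloid leukaemia cells bearing c-kit, taken from the femur and tibia marrow of C57BL/6 mice, in 8 libraries that form 4 groups of 2. All 8 library titles carry the prefix Moz, which the labels do not explain. Mice received corn oil alone or tamoxifen in corn oil (10 mg/kg/day, 5 intraperitoneal doses), and cells were taken 7 days after treatment. Ezh1-present oil libraries are Ezh1+/+ Ezh2+/+ in the labels, and the design text gives their Ezh2 as flox/flox. Ezh1-present tamoxifen libraries are Ezh1+/+ Ezh2-/-, Ezh1-null oil libraries are Ezh1-/- Ezh2+/+ (flox/flox in the design text), and Ezh1-null tamoxifen libraries are Ezh1-/- Ezh2-/-. Every tamoxifen library is labelled as Ezh2-deleted and no oil library is, so the drug and the deletion cannot be told apart. By these labels, cells without both enzymes below are the Ezh1-null tamoxifen group. Cells with both are the Ezh1-present oil group. The recombinase that deletes Ezh2, the age of the mice and the origin of each library in an animal or a leukaemia are not stated in the sources used here. The p-values therefore measure only the spread between these libraries, which may be technical.

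The family has 3 kinds of member with opposed roles. Pro-survival proteins (Bcl2, Bcl-xL from Bcl2l1, and Mcl1) hold the effectors Bak and Bax in check, and the effectors form pores in the outer mitochondrial membrane once released. BH3-only proteins (Puma from Bbc3, Noxa from Pmaip1, Bik, Bid, Bim from Bcl2l11, and Bmf) sense stress and bind the pro-survival proteins, and some also activate the effectors directly. Acute myeloid leukaemia cells often depend on Bcl2 or Mcl1. Ezh1 and Ezh2 are the alternative catalytic subunits of Polycomb repressive complex 2, which methylates histone H3 and represses genes, commonly at promoters rich in CG dinucleotides.

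Because of that preference, the DNA just before a start site is shown for 2 BH3-only genes, 1 with a CG count far above the median of all such windows and 1 close to it. RefSeq promoter windows on GRCm38.p6, each running from 250 bases before to 50 bases after a start site, matched 8 of the 10 members with 15 windows. Pmaip1 and Bik, which are called below along with Bbc3, had no window. The first stretch lies at chr7:16309333-16309582 on the plus strand, before the RefSeq start of Bbc3, in an intron of the longer GENCODE M21 model of the same gene. The second lies at chr2:118544588-118544837 on the minus strand, before an inner start site of Bmf and in an intron of its longest model. Capitals mark CG.
Bbc3: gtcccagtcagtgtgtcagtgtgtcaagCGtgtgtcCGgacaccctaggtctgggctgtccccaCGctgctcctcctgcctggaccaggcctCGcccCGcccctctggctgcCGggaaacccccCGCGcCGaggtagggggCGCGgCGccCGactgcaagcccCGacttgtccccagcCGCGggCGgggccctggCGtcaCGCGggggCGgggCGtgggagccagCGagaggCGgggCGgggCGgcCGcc
Bmf: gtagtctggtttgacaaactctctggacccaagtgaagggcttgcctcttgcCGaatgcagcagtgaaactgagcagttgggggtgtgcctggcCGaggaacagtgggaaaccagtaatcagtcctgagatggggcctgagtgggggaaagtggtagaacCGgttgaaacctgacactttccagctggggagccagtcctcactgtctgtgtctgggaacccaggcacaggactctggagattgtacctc
The Bbc3 stretch holds 27 CG in 250 bases and the Bmf stretch 3. Over the whole windows, Bbc3 had 34, 30 and 39 CG at its 3 start sites, against a median of 7 over 32851 windows of 27025 genes, and Bmf had 8, 6 and 13. The window of Bcl2 had 44 CG, the most of the 15, those of Bcl2l11 had 27 and 38, and that of Mcl1 had 33. Bid had 22, Bak1 had 11, and the windows of Bcl2l1 had 1, 14 and 22. The half-site motif of the tumour suppressor p53, searched by name on both strands, matched 1 of the 15 windows, the inner Bmf window printed here (GGGCTTGCCT), and 8.36% of all windows. These matches describe letters only, and no chromatin was measured. Whether CG content bears on the changes below was not tested.

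The deposited values are log2 normalized values in which each gene is centred on its own median over the 8 libraries. A value therefore says how a library compares with the others for that gene, and levels cannot be compared between genes. Libraries differed 1.66-fold in estimated relative depth, judged from the normalized value that 1 read took among low genes. That value was searched over a 2-fold range only, so a larger difference could not be seen, and total counts are unknown. Libraries of the same group differed by a median SD of 0.107 to 0.128, depending on the group, on the log2 scale. Tests used limma on the 18051 genes with at least 2 libraries above the floor of the values. A gene is called where its Benjamini-Hochberg adjusted p over all those genes is under 0.05. All 10 members had all 8 libraries above the floor and were tested. With 2 libraries against 2, an exact permutation test of a single gene could reach no two-sided p below 0.333 and was not used. The targeted genes checked the labels. Ezh1 ran from 1.55 to 1.71 in the Ezh1-present and from -1.94 to -1.55 in the Ezh1-null libraries. The log2 change of Ezh2 after tamoxifen was -0.47 ± 0.084 (limma adjusted p = 0.0554) without Ezh1 and -0.18 ± 0.084 (0.293) with Ezh1, neither called. Between the genotypes Ezh2 was called lower without Ezh1, at -0.315 ± 0.084 in oil (limma adjusted p = 0.0492) and -0.6 ± 0.084 after tamoxifen (0.02). The oil call held in only 2 of 15 alternative fits, and ended at a limma adjusted p of 0.0834 after quantile normalization. The call after tamoxifen held in 10 of 15, and ended at 0.0894 when only the 2 groups compared were fitted. Between cells without both enzymes and cells with both, the change was -0.784 ± 0.084 (limma adjusted p = 0.00582). Gene totals cannot show whether exons were lost, so the Ezh2 labels were not checked by them.

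Markers of the labelled cells were present, since all 11 markers of c-kit+ myeloid progenitors, Kit and Cd34 among them, lay above the floor in all 8 libraries. Markers of other cell types moved with the groups. In oil, 6 of 8 B cell markers, 5 of 9 mature neutrophil markers and 5 of 8 mast cell, basophil and eosinophil markers were called higher without Ezh1. So were 6 of the 11 progenitor, 3 of 10 T and NK cell and 1 of 10 erythroid markers. Of 8 monocyte and macrophage markers, 3 were called higher and 4 lower, and of 8 megakaryocyte and platelet markers 1 in each direction. Of 8 stromal and endothelial markers, 1 was called lower. Of all genes, 24.9% were called there in either direction. The median over the B cell markers ran from -2.39 to -1.31 in Ezh1-present and from 1.15 to 3.62 in Ezh1-null libraries. For neutrophil markers these ranges were -3.53 to -0.315 and 0.353 to 1.75, and for mast cell, basophil and eosinophil markers -4.22 to -0.276 and 0.276 to 2.27. No marker of these lists was at the floor in 7 or more libraries. With tamoxifen in Ezh1-null cells, 1 of 10 T and NK cell markers and 1 of 8 monocyte and macrophage markers were called, both higher. Limma called none of the progenitor, B cell, neutrophil, erythroid, megakaryocyte, mast cell or stromal markers, with 1 of these 62 at an unadjusted p under 0.05. With tamoxifen in Ezh1-present cells, 1 T and NK cell marker and 1 monocyte and macrophage marker were called, both higher. Limma gave an unadjusted p under 0.05 for 9 of 10 T and NK cell and 8 of 8 mast cell, basophil and eosinophil markers. The same held for 6 of 10 erythroid and 6 of 9 neutrophil markers, beside 20.6% of all genes. Median log2 changes of these lists, in that order, were 3.81, 3.46, 3.07 and 2.23, beside 0.22 for B cell and 0.2 for progenitor markers. In bulk samples, fewer cells of a type and less RNA per cell cannot be told apart. Whether cell makeup plays a part in the differences below, between the Ezh1 genotypes or with tamoxifen, was not tested.

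Among the members, the BH3-only genes Bbc3, Pmaip1 and Bik carried every call. In Ezh1-null oil cells all 3 were lower than in Ezh1-present oil cells, by 1.69-, 3.15- and 4.07-fold. After tamoxifen, Bbc3 rose 2.38-fold and Pmaip1 1.63-fold in Ezh1-null cells, whereas no member was called in Ezh1-present cells. None of the 3 pro-survival genes and not the effector Bak1 passed the test in any comparison. Tamoxifen in Ezh1-null cells and Ezh1 loss in oil share the Ezh1-null oil libraries, so their changes are not independent of each other.

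**Figure D1:**
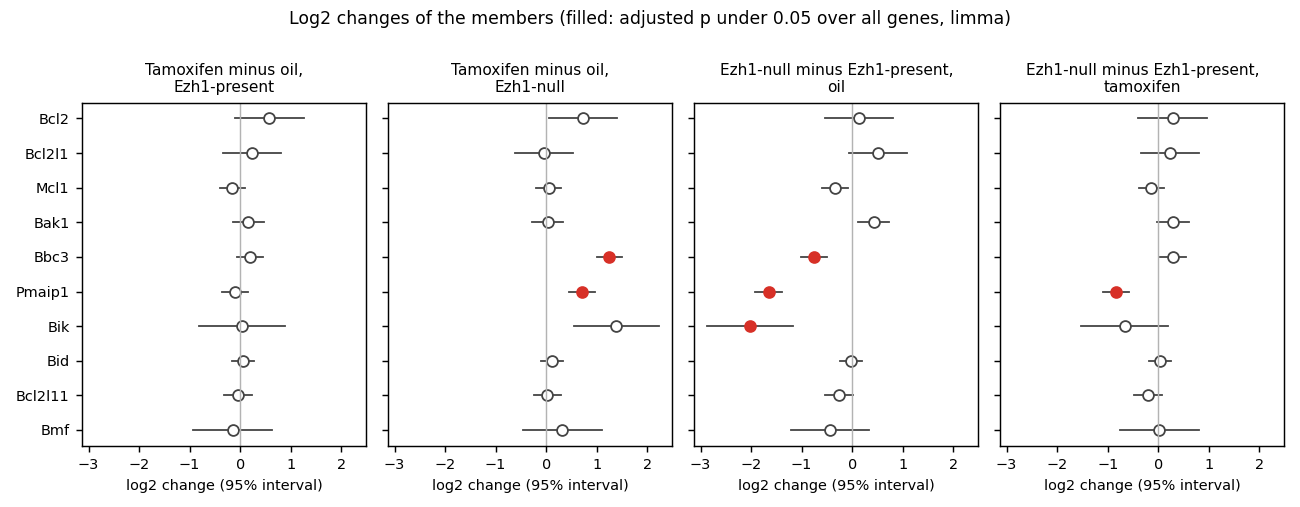
Log2 change of each member in 4 comparisons (x axis, log2 units) with its 95% interval from the limma fit over 8 libraries; filled circles have an adjusted p under 0.05 over 18051 genes. The filled circles are Bbc3 and Pmaip1 above 0 for tamoxifen in Ezh1-null cells, Bbc3, Pmaip1 and Bik below 0 for Ezh1 loss in oil, and Pmaip1 below 0 for Ezh1 loss after tamoxifen.

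Read against all genes, these counts were as follows. With tamoxifen in Ezh1-present cells, 0 of 10 members were called by limma, where 0.903% of all genes were called. At an unadjusted p under 0.05 there were 0 members and 20.6% of all genes. In 5 of the 10 the 2 tamoxifen libraries did not overlap the 2 oil libraries, 3 higher and 2 lower, and 53.8% of all genes were so separated. With tamoxifen in Ezh1-null cells, 2 of 10 members were called, both higher, against 3.4% of all genes in either direction and 3.1% higher. The groups did not overlap for 6 members, all higher, against 49.2% of all genes. For Ezh1 loss in oil, 3 of 10 members were called, all lower, against 24.9% of all genes in either direction and 12.4% lower. The groups did not overlap for 7 members, 2 higher and 5 lower, against 65.8% of all genes. The oil count of either direction is thus near the background and is no result about the family. For Ezh1 loss after tamoxifen, 1 of 10 members was called, lower, against 12.2% of all genes in either direction and 5.44% lower. The groups did not overlap for 6 members, 3 in each direction, against 62.5% of all genes. Between cells without both enzymes and cells with both, 2 of 10 members were called, 1 in each direction, against 23.4% of all genes (13.2% higher and 10.2% lower). There 9 members did not overlap, 5 higher and 4 lower, against 66.8% of all genes.

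**Figure D2:**
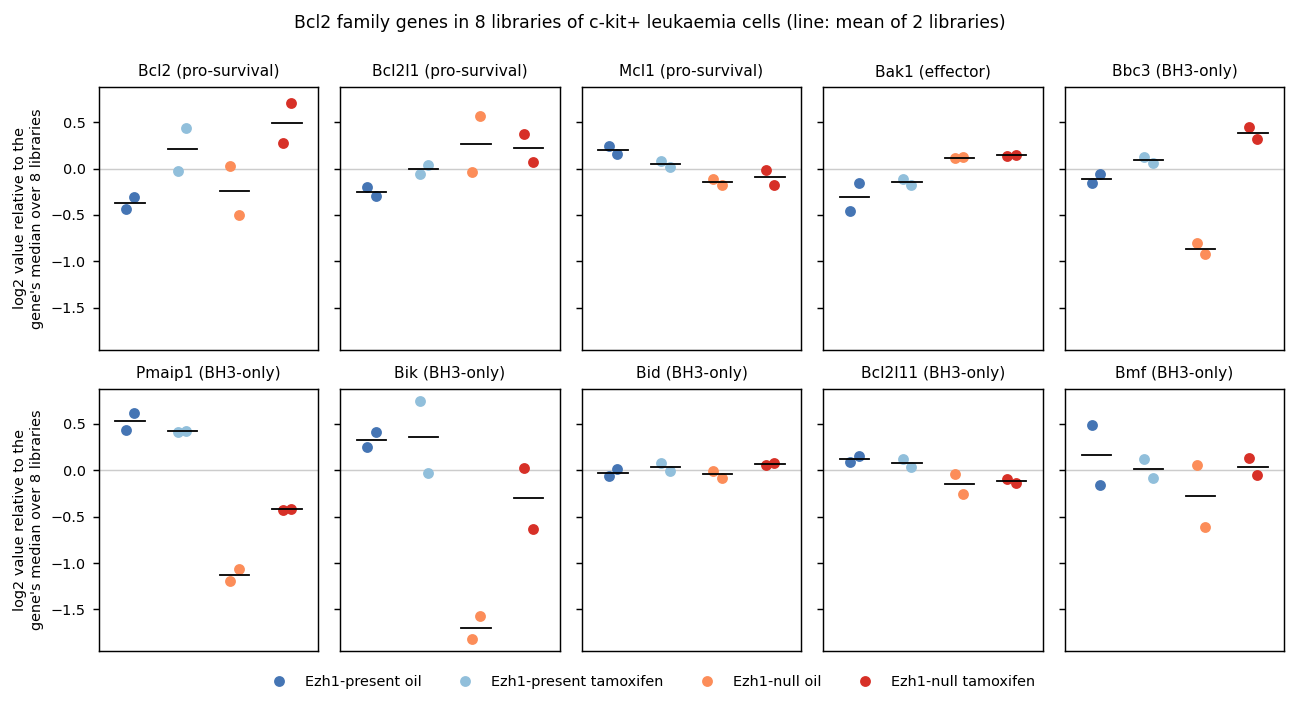
Values of the 10 members in the 8 libraries, as log2 relative to the gene's own median (y axis), with 1 panel per gene, 2 points per group and a line at the group mean. Bbc3, Pmaip1 and Bik are lowest in the 2 Ezh1-null oil libraries, at -0.81 to -1.82, while all 8 values of Bid lie within -0.078 to 0.082.

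The pro-survival genes come first. Bcl2, which blocks release of cytochrome c, had values of -0.43 and -0.31 in Ezh1-present oil, -0.027 and 0.44 in Ezh1-present tamoxifen, 0.027 and -0.50 in Ezh1-null oil, and 0.27 and 0.70 in Ezh1-null tamoxifen libraries. The tamoxifen libraries thus lay above the oil libraries of the same genotype, without overlap. Neither difference was called. The log2 change after tamoxifen was 0.58 ± 0.27 (SE) with Ezh1, with a 95% interval from -0.10 to 1.26 (limma adjusted p = 0.3), and 0.73 ± 0.27 without Ezh1 (0.046 to 1.41, adjusted p = 0.25). From lowest to highest the groups ran Ezh1-present oil, Ezh1-null oil, Ezh1-present tamoxifen, Ezh1-null tamoxifen, and each overlapped the next. Cells without both enzymes had Bcl2 1.82-fold above cells with both (log2 change 0.86 ± 0.27, adjusted p = 0.075), which was not called. GENCODE M21 places an antisense gene over 6.09% of the exon bases of Bcl2, and since the counting is not stated to use strand, reads of the pair cannot be told apart there.

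Bcl2l1 encodes Bcl-xL, which erythroid and megakaryocytic cells rely on for survival. It lay at -0.20 and -0.30 in Ezh1-present oil, -0.054 and 0.042 in Ezh1-present tamoxifen, -0.042 and 0.56 in Ezh1-null oil, and 0.37 and 0.067 in Ezh1-null tamoxifen libraries. Ezh1-null oil replicate 2 stood above its partner by more than the groups differed. In oil the change with Ezh1 loss was 0.51 ± 0.23 (95% interval -0.067 to 1.08, limma adjusted p = 0.164). The median over the erythroid markers in the 2 Ezh1-null oil libraries was 0.0568 in replicate 1 and 1.68 in replicate 2, the same order as for Bcl2l1. The order was also the same in both tamoxifen groups, but the reverse in Ezh1-present oil (-2.5 and -1.9). The highest erythroid median, 2.07 in Ezh1-present tamoxifen replicate 2, went with Bcl2l1 at 0.042. Whether erythroid cells play a part in the Bcl2l1 values was not tested.

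Mcl1, a short-lived guardian of myeloid cells, lay at 0.24 and 0.15 in Ezh1-present oil, 0.078 and 0.012 in Ezh1-present tamoxifen, -0.11 and -0.17 in Ezh1-null oil, and -0.012 and -0.18 in Ezh1-null tamoxifen libraries. All 4 Ezh1-present values lay above all 4 Ezh1-null values, over a narrow range. The share of all genes so separated over all 8 libraries is not given here. The genotypes did not overlap for 65.8% of all genes in oil and 62.5% after tamoxifen. Mcl1 was 1.27-fold lower without Ezh1 in oil (log2 change -0.34 ± 0.099), at a limma adjusted p of 0.06, so it was not called. It reached 0.0445 when only genes above the floor in all 8 libraries were tested, the lowest of a range that ran up to 0.203 over 15 alternatives. After tamoxifen its change was -0.15 ± 0.099 with Ezh1 (adjusted p = 0.442) and 0.051 ± 0.099 without (0.847), and the second value became -0.0155 after quantile normalization.

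Bak1 encodes the effector Bak, which sits on the outer mitochondrial membrane. Its values were -0.46 and -0.15 in Ezh1-present oil, -0.11 and -0.18 in Ezh1-present tamoxifen, 0.11 and 0.13 in Ezh1-null oil, and 0.14 and 0.15 in Ezh1-null tamoxifen libraries. Here the Ezh1-null libraries were the higher ones, and all 4 lay above all 4 Ezh1-present libraries, again without a share over all genes. In oil the log2 change was 0.42 ± 0.12 (1.34-fold), with a limma adjusted p of 0.0607 that did not pass. Without Ezh1-present oil replicate 2 it was 0.58, at an adjusted p of 0.0417, and over 15 alternatives the adjusted p ran from 0.0417 to 0.185. Between cells without both enzymes and cells with both it was 0.45 ± 0.12 (adjusted p = 0.0544), and 0.61 (0.0419) without the same library. Its log2 change with tamoxifen was 0.16 ± 0.12 with Ezh1 (adjusted p = 0.505) and 0.026 ± 0.12 without (0.96), the second value turning to -0.0064 after quantile normalization. GENCODE M21 has the gene Ggnbp1 on the other strand over 614 of the 2407 exon bases of Bak1 (25.5%), and reads from the shared part cannot be assigned without strand.

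Bbc3 (gene 170770, mm10 chromosome 7, 16309583 to 16318334) encodes Puma, a BH3-only protein best known as a p53 target that binds every pro-survival member. It lay at -0.16 and -0.058 in Ezh1-present oil, 0.12 and 0.058 in Ezh1-present tamoxifen, -0.81 and -0.92 in Ezh1-null oil, and 0.45 and 0.32 in Ezh1-null tamoxifen libraries. The 4 groups did not overlap, and their order from lowest was Ezh1-null oil, Ezh1-present oil, Ezh1-present tamoxifen, Ezh1-null tamoxifen. Group means were -0.86 ± 0.079, -0.11 ± 0.070, 0.090 ± 0.046 and 0.38 ± 0.093 (SD, n = 2) in that order. In oil, Bbc3 was 1.69-fold lower without Ezh1 (log2 change -0.76 ± 0.099, limma adjusted p = 0.00778). In Ezh1-null cells its log2 change with tamoxifen was 1.25 ± 0.099, or 2.38-fold (limma adjusted p = 0.00794), from that low value to above the Ezh1-present libraries. In Ezh1-present cells the change was 0.20 ± 0.099 (95% interval -0.053 to 0.45, adjusted p = 0.332), which was not called.

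The difference between those tamoxifen changes, the interaction, was 1.05 ± 0.14 for Bbc3, and its adjusted p of 0.0682 missed the threshold (0.0671 to 0.185 over 14 alternatives). After tamoxifen, Bbc3 was 1.23-fold higher without Ezh1 than with it (0.29 ± 0.099, limma adjusted p = 0.113), which was not called. Cells without both enzymes had Bbc3 1.41-fold above cells with both (0.49 ± 0.099, adjusted p = 0.025). That last call was lost when any of the 4 libraries compared was left out: the adjusted p became 0.106 and 0.0732 on removing replicates 1 and 2 of Ezh1-present oil, and 0.109 and 0.0647 on removing replicates 1 and 2 of Ezh1-null tamoxifen. The other 2 calls held without each of the 8 libraries in turn, and the tamoxifen call ended at 0.0615 when only the 2 Ezh1-null groups were fitted.

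Pmaip1 (gene 58801) encodes Noxa, a BH3-only protein that binds Mcl1 preferentially and speeds its turnover. It lay at 0.43 and 0.62 in Ezh1-present oil, 0.42 and 0.43 in Ezh1-present tamoxifen, -1.20 and -1.06 in Ezh1-null oil, and -0.42 and -0.42 in Ezh1-null tamoxifen libraries. The genotypes were far apart, and no Ezh1-null library came near an Ezh1-present one. Within the Ezh1-null cells the tamoxifen libraries stood between their oil partners and the Ezh1-present libraries. In oil, Pmaip1 was 3.15-fold lower without Ezh1 (log2 change -1.65 ± 0.10, limma adjusted p = 0.00239). After tamoxifen it was 1.79-fold lower without Ezh1 (-0.84 ± 0.10, adjusted p = 0.0155). Cells without both enzymes had it 1.93-fold below cells with both (-0.95 ± 0.10, adjusted p = 0.00607).

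Pmaip1 was 1.63-fold higher with tamoxifen in Ezh1-null cells (0.71 ± 0.10, limma adjusted p = 0.0355). In Ezh1-present cells its change was -0.11 ± 0.10 (95% interval -0.37 to 0.16, limma adjusted p = 0.609). The interaction was 0.81 ± 0.15 (adjusted p = 0.115) and was not called. The rise was called in 4 of 15 alternatives, the fewest of the members' 8 calls. Its adjusted p ran from 0.0305 to 0.773 over 15 alternatives, and quantile normalization reduced the change to 0.102 (0.773). Without a library it was 0.0548 for either Ezh1-present oil library, 0.0717 for either Ezh1-present tamoxifen library, 0.116 and 0.0927 for Ezh1-null oil replicates 1 and 2, and 0.146 and 0.15 for Ezh1-null tamoxifen replicates 1 and 2. The lower value after tamoxifen without Ezh1 also lost its call without any of the 4 libraries compared, at 0.0591 and 0.0575 for Ezh1-present tamoxifen replicates 1 and 2, and 0.0748 and 0.0707 for Ezh1-null tamoxifen replicates 1 and 2. The differences in oil, and between cells without both enzymes and with both, held under all 15 alternatives.

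Bik (gene 12124, mm10 chromosome 15, 83526862 to 83544635) encodes a BH3-only protein of the endoplasmic reticulum membrane. It lay at 0.25 and 0.41 in Ezh1-present oil, 0.75 and -0.024 in Ezh1-present tamoxifen, -1.82 and -1.57 in Ezh1-null oil, and 0.024 and -0.63 in Ezh1-null tamoxifen libraries. Both Ezh1-null oil libraries were far below the other 6, and the libraries within either tamoxifen group were widely spread. Bik was 4.07-fold lower without Ezh1 in oil (log2 change -2.03 ± 0.34, limma adjusted p = 0.0139), the largest change of any member in the 6 comparisons made. Its log2 change with tamoxifen was 1.39 ± 0.34 in Ezh1-null cells (2.62-fold, 95% interval 0.54 to 2.24), where the adjusted p of 0.111 did not pass, and 0.033 ± 0.34 in Ezh1-present cells (-0.82 to 0.88, adjusted p = 0.974). The interaction of 1.36 ± 0.47 (adjusted p = 0.293) was not called. The oil call ended without any of the 4 oil libraries, at 0.0652 and 0.067 for Ezh1-present replicates 1 and 2 and 0.0627 and 0.0574 for Ezh1-null replicates 1 and 2. It ended at 0.06 after quantile normalization.

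**Figure D3:**
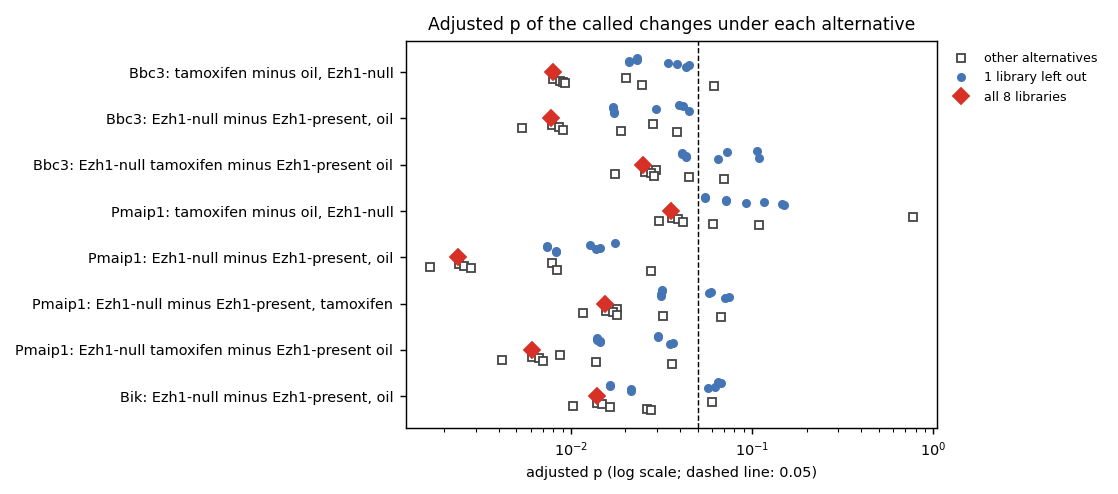
Adjusted p (x axis, log scale, dashed line at 0.05) of the 8 called changes of Bbc3, Pmaip1 and Bik, with diamonds for the fit to all 8 libraries, circles for fits without 1 library and squares for the other alternatives. The oil changes of Bbc3 and Pmaip1 and the Pmaip1 change between cells without both enzymes and with both stay left of the line throughout, and the rise of Pmaip1 with tamoxifen has all 8 circles right of it.

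None of the remaining BH3-only genes was called in any comparison. Bid, which caspase 8 cleaves to link death receptors to mitochondria, ran from -0.078 to 0.082 over all 8 libraries. Its changes in the 6 comparisons lay between -0.019 and 0.11, with limma adjusted p of 0.489 or more, and the largest, with tamoxifen in Ezh1-null cells, had a 95% interval from -0.11 to 0.33. Its exon bases overlap Bcl2l13 on the other strand over 17.7%. Bcl2l11, whose product Bim binds all pro-survival members, lay at 0.088 and 0.16 in Ezh1-present oil, 0.13 and 0.035 in Ezh1-present tamoxifen, -0.035 and -0.25 in Ezh1-null oil, and -0.098 and -0.14 in Ezh1-null tamoxifen libraries. Like Mcl1, it had its 4 Ezh1-present values above its 4 Ezh1-null values, again without a share over all genes. Its change with Ezh1 loss was -0.27 ± 0.11 in oil (adjusted p = 0.132) and -0.20 ± 0.11 after tamoxifen (0.264), neither called. Bmf, a BH3-only protein held at the cytoskeleton, lay at 0.49 and -0.16 in Ezh1-present oil, 0.12 and -0.087 in Ezh1-present tamoxifen, 0.054 and -0.61 in Ezh1-null oil, and 0.13 and -0.054 in Ezh1-null tamoxifen libraries. The oil pairs differed by more than any group means, and the change with Ezh1 loss in oil was -0.44 ± 0.31 (95% interval -1.22 to 0.34, adjusted p = 0.342).

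Taken by role, the mean over the 6 BH3-only genes was 0.17 and 0.16 in Ezh1-present oil, 0.27 and 0.066 in Ezh1-present tamoxifen, -0.64 and -0.75 in Ezh1-null oil, and 0.022 and -0.14 in Ezh1-null tamoxifen libraries. The low oil values of the Ezh1-null cells came mostly from Bik, Pmaip1 and Bbc3. The mean over the 3 pro-survival genes ran from -0.15 to -0.13 in Ezh1-present oil, -0.00091 to 0.16 in Ezh1-present tamoxifen, -0.043 to -0.039 in Ezh1-null oil and 0.20 to 0.21 in Ezh1-null tamoxifen libraries. Set against that pro-survival mean in the same library, Pmaip1 stood at 0.56 and 0.77 in Ezh1-present oil but at -0.64 and -0.61 in Ezh1-null tamoxifen libraries, while Bbc3 stood at -0.028 and 0.096 in the first and 0.24 and 0.12 in the second. The median log2 change of the 10 members was 0.21 for tamoxifen in Ezh1-null cells and -0.30 for Ezh1 loss in oil, beside 0 and -0.040 over all 18051 genes. For tamoxifen in Ezh1-present cells it was 0.047, beside 0.0145 over all genes. For Ezh1 loss after tamoxifen it was 0.025, beside -0.0023. Between cells without both enzymes and with both it was -0.0195, beside -0.0018. The median absolute change of the members was 0.212 for tamoxifen in Ezh1-null cells and 0.434 for Ezh1 loss in oil, near the 0.218 and 0.422 of all genes.

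The interaction asks whether the change of a gene with tamoxifen differed without Ezh1. By limma, 0 of 10 members were called, where 0.476% of all genes were. Bbc3, Pmaip1 and Bik were the 3 members at an unadjusted p under 0.05, which 14.9% of all genes reached, and for each the estimate was larger without Ezh1. A difference between the genotypes in the tamoxifen response of a member was therefore not shown at this threshold. The lowest of the members' adjusted p was that of Bbc3.

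The genes whose 8 library values lay nearest to those of the 3 called members were found by the root mean square difference over the 8 libraries among 15516 other genes. For Bbc3 these were Nt5e, an ectonucleotidase (0.145), Gnb5, a G protein subunit (0.153), and Sesn2, a sestrin of the stress response (0.16). Sesn2, for example, lay at -0.65 and -0.81 in Ezh1-null oil and at 0.14 and 0.19 in Ezh1-null tamoxifen libraries. For Pmaip1 they were Pth1r, a parathyroid hormone receptor (0.152), Arhgap12, a GTPase-activating protein (0.156), and Dusp3, a phosphatase (0.164). For Bik they were Farp1, a guanine nucleotide exchange factor (0.217), Fzd10, a Wnt receptor (0.228), and Sept3, a septin (0.246). These are descriptions of likeness over 8 libraries that share 4 groups.

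The wider pathway was taken from 6 lists with 71 genes, of which 70 were in the table and 69 were tested. For Ezh1 loss in oil, 12 of the 69 were higher and 5 lower, 24.6% in all, close to the 24.9% of all genes. With tamoxifen, 2 were called in Ezh1-null cells (2.9%) and 1 in Ezh1-present cells (1.45%), all higher. The lists were thus called about as often as other genes, and what follows says only which genes those were.

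Of the 14 other Bcl2 family genes tested, 2 were higher and 2 lower without Ezh1 in oil. Bnip3l, a mitophagy receptor, rose 2.13-fold (log2 change 1.09 ± 0.097, limma adjusted p = 0.00362) and Bcl2l2, which encodes the pro-survival Bcl-w, rose 1.67-fold (0.74 ± 0.11, adjusted p = 0.00994). Bcl2l14 fell by 1.11 on the log2 scale (adjusted p = 0.00373), and so did the pro-survival gene Bcl2a1b by 1.25 (0.0487), although Bcl2a1b has near-identical copies that share its reads and is uncertain. Bcl2l14 was also the only gene of that list called with tamoxifen in Ezh1-null cells (0.70 ± 0.10, adjusted p = 0.0355). Its values were -0.77 and -0.83 in Ezh1-null oil and -0.025 and -0.17 in Ezh1-null tamoxifen libraries. In Ezh1-present libraries they were 0.34 and 0.29 in oil and 0.18 and 0.025 after tamoxifen. Like Pmaip1, Bcl2l14 was lowest in Ezh1-null oil libraries. After tamoxifen its change with Ezh1 loss was -0.20 ± 0.10 (limma adjusted p = 0.244), not called, whereas Pmaip1 was called lower there. The effector Bax, which acts beside Bak, was not called, at -0.40 ± 0.16 without Ezh1 in oil (adjusted p = 0.129) and 0.49 ± 0.16 with tamoxifen in Ezh1-null cells (0.206). The Bcl2l14 call with tamoxifen was lost on removing any 1 of the 8 libraries. Its adjusted p became 0.0785 on removing an Ezh1-present oil library, 0.052 on removing an Ezh1-present tamoxifen library, 0.105 and 0.132 on removing replicates 1 and 2 of Ezh1-null oil, and 0.147 and 0.108 on removing replicates 1 and 2 of Ezh1-null tamoxifen.

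Of 14 genes of the apoptosome, caspases and mitochondrial effectors, 5 were higher and 0 lower without Ezh1 in oil. Among them were the initiator Casp9 (1.55-fold), the apoptosome scaffold Apaf1 (1.44-fold), the mitochondrial protease Htra2 (1.51-fold) and Casp2 (1.33-fold). These 4 had limma adjusted p of 0.0141 to 0.0363. With tamoxifen, 0 of these 14 were called in Ezh1-null cells, with 1 at an unadjusted p under 0.05, and 0 in Ezh1-present cells, with 2. The 14 genes had a median log2 change of 0.20 without Ezh1 in oil. The direction of the 5 called genes was opposite to that of Bbc3, Pmaip1 and Bik in the same libraries. Among 9 inhibitors of apoptosis, Naip2 was higher (1.08 ± 0.13, adjusted p = 0.00652), and Naip1, Birc6 and Birc3 were lower, by -1.05, -0.60 and -0.53, with adjusted p of 0.0178, 0.0269 and 0.029. The Naip genes are near-identical copies and uncertain. In the death receptor list of 9, Tnfrsf1a, a TNF receptor, rose by 0.88 ± 0.14 (adjusted p = 0.0117) and Cflar, an inhibitor of caspase 8, by 0.35 ± 0.085 (0.0391). Fas was called between cells without both enzymes and with both (1.05 ± 0.22, adjusted p = 0.0263), a call that was lost on removing replicate 2 of Ezh1-present oil (0.0892), an Ezh1-present tamoxifen library (0.0511), or replicate 1 or 2 of Ezh1-null tamoxifen (0.113 and 0.0929). No gene of the 8 outer membrane partners and regulators of Mcl1 turnover was called in any comparison, with 0 or 1 at an unadjusted p under 0.05 in each.

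Among 15 transcriptional regulators of the family, Cdkn2a was the only gene called with tamoxifen in either genotype. Arf, which stabilises p53, is only 1 of its products, and gene totals cannot tell these products apart. Cdkn2a lay at -0.97 and -1.26 in Ezh1-present oil, 1.40 and 0.97 in Ezh1-present tamoxifen, -1.19 and -1.44 in Ezh1-null oil, and 3.10 and 3.29 in Ezh1-null tamoxifen libraries. The tamoxifen libraries of both genotypes stood far above the oil libraries. The interaction was 2.2 ± 0.28 (limma adjusted p = 0.0663) and was not called. The rise was 4.51 ± 0.20 without Ezh1 (limma adjusted p = 0.00264) and held without each of the 8 libraries in turn. With Ezh1 it was 2.31 ± 0.20 (adjusted p = 0.0276), and that call ended for 7 of the 8 libraries left out. Its adjusted p became 0.115 and 0.082 on removing replicates 1 and 2 of Ezh1-present oil, 0.051 on removing replicate 2 of Ezh1-present tamoxifen, 0.0681 on removing an Ezh1-null oil library and 0.0768 on removing an Ezh1-null tamoxifen library. With tamoxifen in Ezh1-null cells, the change of Trp53, which encodes p53, was -0.16 ± 0.12 (adjusted p = 0.564) and that of Mdm2, its ubiquitin ligase and a p53 target, 0.22 ± 0.088 (0.286), neither called. Stat5b and Foxo3, a transcription factor that activates Bcl2l11, were higher without Ezh1 in oil, by 0.46 ± 0.089 (adjusted p = 0.0213) and 0.47 ± 0.12 (0.0438).

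Of the 17 pathway calls for Ezh1 loss in oil, 4 held without each of the 8 libraries in turn, those of Bnip3l, Bcl2l14 and Naip2 among them. Leaving out Ezh1-null oil replicate 2 ended the other 13, with limma adjusted p from 0.0521 to 0.172. Without Ezh1-null oil replicate 1, 9 calls ended (0.0563 to 0.154). Without Ezh1-present oil replicate 1, 11 ended (0.0583 to 0.119), and without replicate 2, 10 ended (0.051 to 0.176). Without an Ezh1-present tamoxifen library 3 ended (0.0511 to 0.0615), and without an Ezh1-null tamoxifen library 6 ended (0.0523 to 0.0857).

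**Figure D4:**
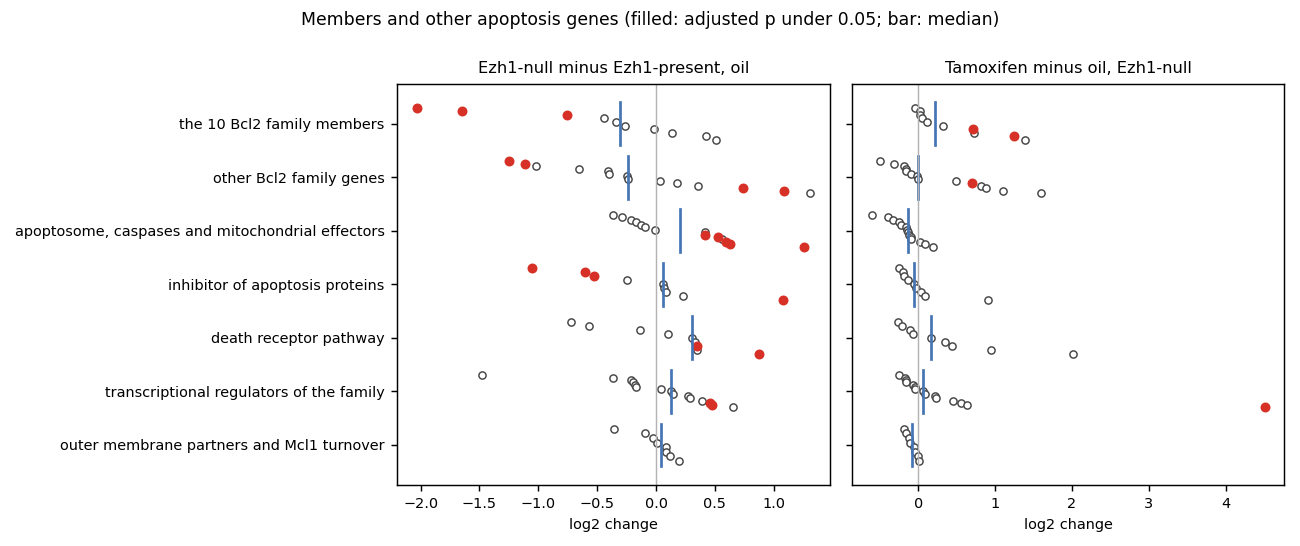
Log2 changes (x axis) of the 10 members and of the genes in 6 apoptosis lists, for Ezh1 loss in oil (left) and tamoxifen in Ezh1-null cells (right); each point is a gene, filled where its adjusted p is under 0.05, and the bar is the list median. On the left 3 members and 5 list genes are called lower and 12 list genes higher, and on the right Bbc3, Pmaip1, Bcl2l14 and Cdkn2a are called, all higher.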

How the data were processed

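Values were RNA sequencing values per gene in 8 libraries of c-kit+ leukaemia cells. Per the file headers, the authors deposited a fold-change list with normalized columns per library, which proved to be log2 values centred on each gene's median over the 8 libraries, and the ratio (absolute fold change) and a signed fold change score between groups. The largest absolute row median was 9.55e-07, and the log2 fold changes the authors deposited equalled differences of group means to within 5.4e-07. The deposited ratio and score columns served only to check the scale. The build is mm10 per the labels. The aligner, the counter, the strand setting and the scaling are not named in the sources used here.

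The 18051 rows with 2 or more libraries above the floor (a further 12530 lay wholly at it and 993 had 1 library above it) were fitted with limma 3.58.1 in R 4.3.3, with 1 coefficient per group, no block and no trend of the variance. Residual degrees of freedom were 4 and prior degrees of freedom 1.24. The floor was identified as ties within 2e-06 at a row's lowest value. Relative depth came from low values, of which 68.9% to 79.3% in a library lay within 0.01 of whole reads. The fit was tested on simulated data. Tables and plots used pandas 2.3.3 and matplotlib 3.10.9 under Python 3.11.15. Promoters are RefSeq's on GRCm38.p6, and overlaps of exons are from GENCODE M21.

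The members and lists were chosen with earlier results of these data known. Named are Ezh1, Ezh2, all members, up to 5 called genes a pathway list by smallest adjusted p, and the 3 nearest profiles of each called member. A gene that the rule names is not reported here. Bax, Trp53 and Mdm2 were named after their values were seen. Alternatives were quantile normalization, centring libraries on their medians, 2 other filters, robust moderation, a replicate block, leaving out each library, and fitting only the 2 groups compared.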

Additional observations from a re-analysis of the deposited data

How the results depend on the processing

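The 60 changes of the 10 members were recomputed under up to 15 alternatives each, giving 890 values, of which 864 kept their direction. None of the 8 called changes reversed. Called members with tamoxifen in Ezh1-null cells went from 2 to 1 with quantile normalization (applied to values already centred by gene), to 1 without any library and to 0 with only the 2 groups fitted. For Ezh1 loss in oil they went from 3 to 5 with genes above the floor in all 8 libraries only, which adds Mcl1 and Bak1, and to 2 or 3 without a library. For Ezh1 loss after tamoxifen they went from 1 to 0 with the 2 groups and to 0 or 1 without a library. Between cells without both enzymes and with both they went from 2 to 1 with the 2 groups, to 3 with the stricter floor filter, which adds Bak1, and to 1 or 2 without a library. Fits with a lone library in a group assume that it varies like the others. Depth limits genes near the floor, and no member lay there.

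Deviations of same-numbered libraries correlated at -0.091 to 0.124 between groups. With 1 replicate difference per group, these values cannot show whether replicate numbers pair the libraries, and the labels do not say. A replicate block left 1 of 2 calls with tamoxifen in Ezh1-null cells, that of Bbc3, and ended that of Pmaip1 (limma adjusted p = 0.0612). It changed no other member's call.

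Quantile normalization reversed uncalled changes with tamoxifen in Ezh1-null cells, of Mcl1 (-0.0155), Bcl2l11 (-0.0529), Bak1 (-0.00639) and Ezh1 (-0.788), and the interaction of Bcl2l11 (-0.00423), and the cause was not tested. Leaving out 1 library reversed only uncalled changes. For tamoxifen in Ezh1-present cells these ranged from -0.0867 to 0.0032 (Bcl2l11), -0.353 to 0.419 (Bik) and -0.474 to 0.172 (Bmf). In Ezh1-null cells they ranged from -0.342 to 0.262 (Bcl2l1), -0.0306 to 0.133 (Mcl1), -0.0838 to 0.132 (Bcl2l11) and -0.0157 to 0.647 (Bmf). For Ezh1 loss in oil the ranges were -0.132 to 0.399 (Bcl2) and -0.0558 to 0.0172 (Bid), and after tamoxifen -0.0183 to 0.0745 (Bid) and -0.0807 to 0.125 (Bmf). Between cells without both enzymes and with both, Bmf ranged from -0.452 to 0.195. Interactions ranged from -0.117 to 0.414 (Bcl2), -0.584 to 0.0199 (Bcl2l1), -0.0421 to 0.174 (Bcl2l11) and -0.292 to 0.0169 (Bak1).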

Other observations

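The 2 Ezh1-present tamoxifen libraries differed from each other in several genes of the family and in markers. Bik lay at 0.75 in replicate 1 and -0.024 in replicate 2, Bcl2 at -0.027 and 0.44, and Bcl2a1b, which has near-identical copies, at 0.27 and 1.23. Of the 8 libraries, replicate 2 had the highest median over the erythroid markers (2.07, against -0.472 in replicate 1), the megakaryocyte and platelet markers (1.92 against 0.526), the T and NK cell markers (2.29 against 0.947) and the stromal and endothelial markers (2.23 against 0.705). Whether these markers bear on the spread of Bik or Bcl2 in that group was not tested.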
